A study of Mus musculus with 2 samples.

Results

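Ccl17-low resting cDC1 cells are type 1 conventional dendritic cells of mouse lung. Almost no mRNA of the chemokine gene Ccl17 and none of Il12b or Plet1 was captured from them. They were taken from 1 droplet single-cell RNA library of lung cells that had been freed with dispase and sorted as XCR1-positive (cDC1), from C57BL/6 mice aged 8 to 10 weeks. A second library of the series held CD172a-positive (cDC2) cells of the same strain, age and tissue. Both libraries are of the steady state, the labels name no treatment, and how many mice went into a library is not stated. Of 2939 barcodes in the cDC1 library, 1643 were kept as cDC1 cells under limits on mature, cell cycle and heat shock genes. A kept barcode had at least 500 genes, at least 1000 unique molecular identifiers (UMIs, which tag single captured transcripts), at most 10% mitochondrial UMIs and at least 1 UMI of Xcr1 or Clec9a. It also had fewer than 3 UMIs of Fscn1 and fewer than 2 of Ccr7, which mark mature dendritic cells, and fewer than 4 UMIs of 6 cell cycle genes. Its share of the heat shock genes Hspa1a, Hspa1b and Dnajb1 lay below the 90th percentile. Among these, 445 cells had Il12b and Plet1 at 0 and at most 2 UMIs of Ccl17. They made up 27.1% of the kept cells (exact binomial 95% interval 24.9 to 29.3%, counting error only) and 15.1% of all barcodes of the library.

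The other 1198 kept cells fell into 3 classes that did not overlap. The Ccl17-high cells, 308 in number, had at least 3 UMIs of Ccl17 with Il12b and Plet1 at 0. The 152 Il12b-positive cells had Plet1 at 0, and the 738 Plet1-positive cells could hold any level of Ccl17 and Il12b. A count of 0 means that no transcript was captured, so some such cells may have held Il12b or Plet1 mRNA. Among Plet1-positive cells with Il12b at 0, the median Plet1 count was 3 UMIs at Ccl17 of 2 or fewer. It was 4 UMIs at Ccl17 of 3 or more. The cells were chosen on these 3 genes within a single library and cells are not replicates, so no difference given here has a test or a replicate check. Levels are in CPM, the UMIs of a gene summed over the cells of a group per 1000000 UMIs of that group. A fold is followed in parentheses by its 95% interval, which covers counting error only. A gene was called higher or lower at 1.5-fold or more, which is a rule of size and not a test.

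Conventional dendritic cells take up antigen and present it to T cells. The cDC1 kind depends on the transcription factors Batf3 and Irf8, takes up dead cells with the help of Clec9a, presents their antigens on MHC class I, and senses double-stranded RNA through the endosomal receptor Tlr3. Ccl17 and its chromosomal neighbour Ccl22 encode chemokines that attract T cells through the receptor Ccr4. NF-kB is a family of transcription factors that inhibitor proteins hold back in resting cells and that danger signals and cytokines release, and several of its inhibitors are themselves NF-kB target genes. Ccl17, Ccl22, Cd80 and Il12b are commonly read as signs of dendritic cell activation.

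Depth differed little between the groups. The Ccl17-low cells held 5424133 UMIs, with a median of 12119 UMIs, 2592 genes and 3.88% mitochondrial UMIs per cell. The other kept cells held 15697212 UMIs, with medians of 12805 UMIs, 2565.5 genes and 3.96% mitochondrial UMIs. The 3 heat shock genes differed even below the limit set on them. Their share was 0.0496% of UMIs in Ccl17-low cells and 0.0256% in other kept cells, with Hspa1a at 303 and 142 CPM. The 7 measured heat shock genes outside the filter all lay within 1.5-fold, where 6.43% of all measured genes lay past it. Hsph1, 1 of the 7, had a ratio between 0.493 and 1.81 over the alternative settings. Values for cells with 0 UMIs of the 3 genes are given beside several of the results that changed there. The library shared 6 barcode sequences with the cDC2 library, of which 1 was a Ccl17-low cell.

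The values of the genes that chose the cells are a description. Ccl17 was at 0 in 232 of the Ccl17-low cells, at 1 UMI in 148 and at 2 UMIs in 65, and 42 cells with exactly 3 UMIs lay just outside. The summed level was 51.3 CPM in Ccl17-low cells and 2316 CPM in other kept cells, whose median cell had 11 UMIs and whose highest had 323. Free RNA in droplets puts a floor under such counts. In 15 barcodes of the same library that held B, T or NK cell genes and no Xcr1 or Clec9a, Ccl17 stood at 91.5 CPM and no barcode had over 2 UMIs. A Ccl17 UMI was present in 47.9% of Ccl17-low cells, at a median depth of 12119 UMIs, and in 26.7% of these 15 lymphocyte barcodes, at a median depth of 3405 UMIs. The 1 or 2 UMIs of a Ccl17-low cell are therefore not read as expression.

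**Figure D1:**
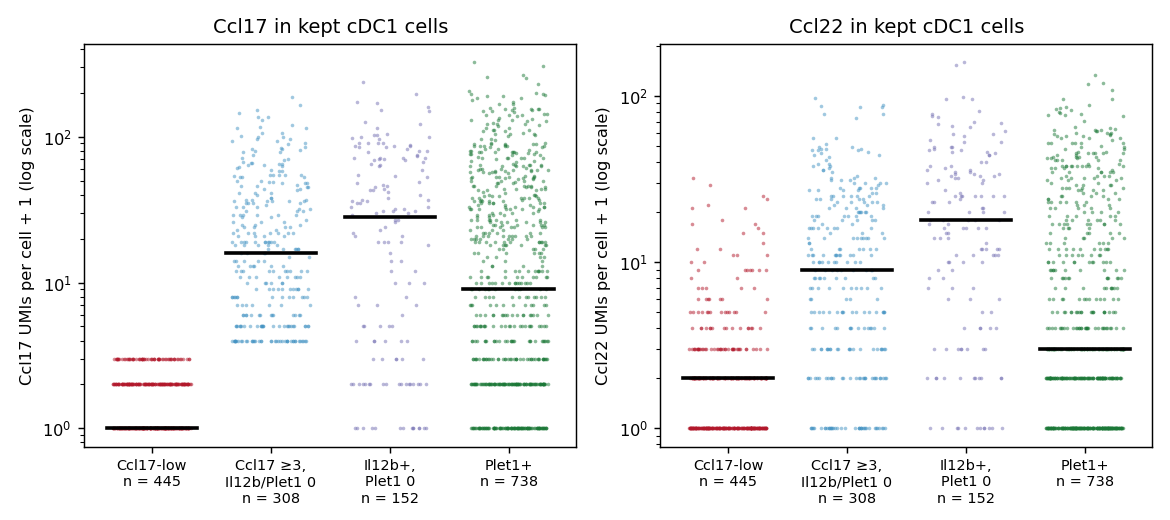
UMIs of Ccl17 (left) and Ccl22 (right) per kept cDC1 cell, plus 1, on log axes, for the Ccl17-low cells and the 3 classes of other kept cells. Each point is a cell and each bar the class median; Ccl17 chose the cells, and Ccl22, which did not, reached at most 31 UMIs in a Ccl17-low cell and 158 in another kept cell.

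Ccl17-low cells carried the defining genes of cDC1 at about the level of the other kept cells. The 7 genes of the cDC1 marker list summed to 3206 CPM in Ccl17-low cells and 3017 CPM in other kept cells, and all 7 were at 20 CPM or more. Xcr1 and Clec9a are in that list, and the rule asked for a UMI of either in every kept cell. Their presence was therefore set by the rule in both groups. Xcr1, the sorted receptor, stood at 266 CPM in Ccl17-low cells and 269 CPM in other kept cells, and Clec9a at 169 and 140 CPM. Irf8 stood at 1055 and 1108 CPM, Batf3 at 76.1 and 57.8 CPM, and Cadm1, an adhesion molecule of cDC1, at 290 and 249 CPM. Naaa, a lysosomal amidase, was at 679 CPM in Ccl17-low cells and 496 CPM in other kept cells, and Itgae, the integrin chain CD103 of mucosal cDC1, at 197 and 255 CPM. All of these lay within 1.5-fold. Of the 16 measured genes of a wider cDC1 identity list, 14 lay within 1.5-fold, where 6.43% of all measured genes lay past it. Tlr3 was higher, and Ly75, the uptake receptor DEC-205, was 1.82-fold lower (1.56 to 2.14) at 36.1 CPM in Ccl17-low cells against 65.9 CPM in other kept cells.

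Markers of other cells were mostly low, and none of their lists was at the level of the cDC1 list. The cDC2 marker list summed to 37.8 CPM in Ccl17-low cells and 94.8 CPM in other kept cells. That of mature dendritic cells summed to 8.11 and 12.9 CPM, with Nudt17 and H2-M2 at 0 in Ccl17-low cells. Fscn1 and Ccr7 are in the mature list and were limited by the rule, so its low sum was in part set in advance. Macrophage markers summed to 18.6 CPM in Ccl17-low cells and 21.3 CPM in other kept cells, neutrophil markers to 0.553 and 1.91 CPM, and B cell markers to 2.58 and 1.27 CPM. Markers of plasmacytoid dendritic cells summed to 175 CPM in Ccl17-low cells and 165 CPM in other kept cells, those of alveolar type 2 epithelium to 13.6 and 16.5 CPM, and those of other epithelium to 53.1 and 80.2 CPM. Fibroblast, endothelial, red blood cell and mast cell lists stayed at or below 11.1 CPM in both groups. T and NK cell markers summed to 4.79 CPM in Ccl17-low cells and 4.14 CPM in other kept cells. The monocyte list reached 619 CPM in Ccl17-low cells and 523 CPM in other kept cells, most of it Nr4a1, at 414 and 372 CPM, and Ccr2, at 176 and 124 CPM, both also expressed by dendritic cells.

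Of the 5 genes given as markers of these cells, Tlr3 and Serpinb8 were higher in Ccl17-low cells by the rule of size, Rab7b was slightly higher, and Timeless and Esyt3 did not separate them. Only some of the given markers thus went with the label. Tlr3 ran from 0 to 9 UMIs per Ccl17-low cell with a median of 0, and from 0 to 10 per other kept cell with a median of 0, so the cells of both groups overlapped over nearly the whole range. Summed, it stood at 79.6 CPM in Ccl17-low cells and 38.9 CPM in other kept cells (2.05-fold higher, 1.81 to 2.32). A Tlr3 UMI was found in 45.6% of Ccl17-low cells and 28.6% of other kept cells, and in 0 of the 15 lymphocyte barcodes, which allows a share of up to 20%. In the cDC2 library 2.57% of cells had a Tlr3 UMI. The Ccl17-high cells stood at 46.5 CPM of Tlr3, the Il12b-positive cells at 50.01 CPM and the Plet1-positive cells at 33.9 CPM, so the Ccl17-low cells were above each class.

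Serpinb8, a serine protease inhibitor, stood at 29.3 CPM in Ccl17-low cells and 17.5 CPM in other kept cells (1.68-fold higher, 1.37 to 2.05). Among cells with 0 UMIs of the 3 heat shock genes its fold was 1.46. Rab7b, a late endosomal Rab GTPase, ran from 0 to 21 UMIs per Ccl17-low cell with a median of 5 and from 0 to 22 per other kept cell with a median of 4. Its sums were 433 CPM in Ccl17-low cells and 358 CPM in other kept cells (1.21-fold higher, 1.15 to 1.27). Timeless, which protects replication forks, was at 86.5 CPM in Ccl17-low cells and 82.6 CPM in other kept cells, with a ratio of 1.05 (0.940 to 1.16), and 1 Ccl17-low cell held 24 of its UMIs. Esyt3, an extended synaptotagmin of membrane contact sites, was at 29.7 CPM in Ccl17-low cells and 28.7 CPM in other kept cells, with a ratio of 1.03 (0.858 to 1.24). Against the Il12b-positive cells alone the values of both were further apart. Timeless stood at 86.5 CPM in Ccl17-low cells and 60.8 CPM in Il12b-positive cells, and Esyt3 at 29.7 and 14.95 CPM.

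**Figure D2:**
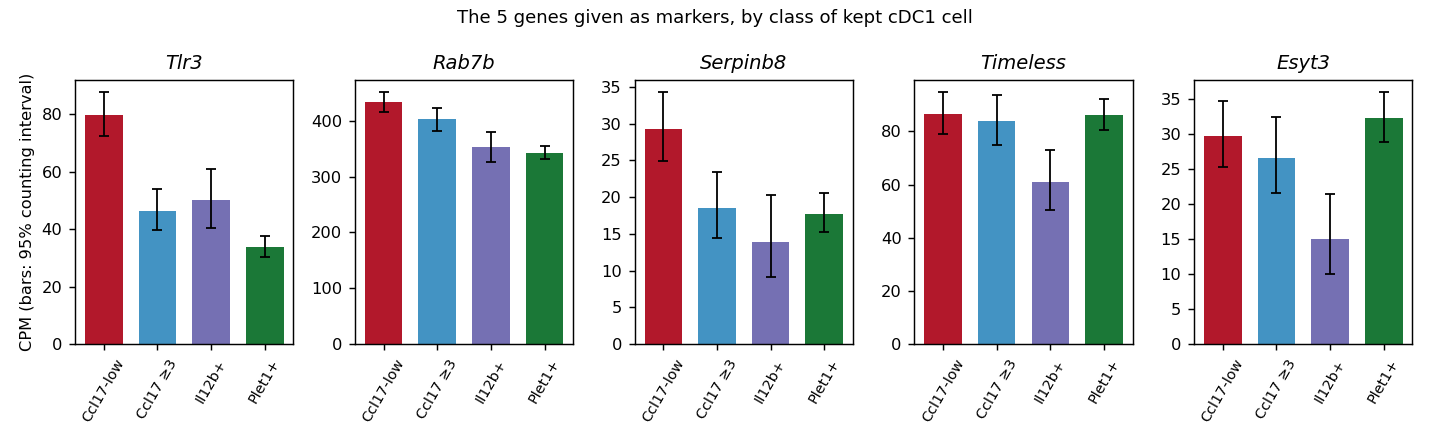
Summed level in CPM (each axis from 0) of the 5 genes given as markers, in the Ccl17-low cells, the Ccl17-high cells, the Il12b-positive cells and the Plet1-positive cells. Bars are the level and lines its 95% counting interval: Tlr3 (79.6 CPM) and Serpinb8 (29.3 CPM) were highest in Ccl17-low cells, while Timeless and Esyt3 were at a like level in Ccl17-low, Ccl17-high and Plet1-positive cells.

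Across the library's genes the Ccl17-low cells differed from the other kept cells in a small share. Of 4434 genes at 20 CPM or more in either group, leaving out the genes of the rule, 117 (2.64%) were 1.5-fold or more higher in Ccl17-low cells and 168 (3.79%) were 1.5-fold or more lower. Together these were 285 genes (6.43%), and the counting interval left out 1 for all of them. A gene at 20 CPM or more in only 1 group entered through the group where it was higher. Its call was thus in part set by the level limit. Among others, this holds for Plac8, Serpinb8, Cxcl9, Cxcr3, Id3, Mycl, Bcl11a, March1 and Lamp1 on the higher side. On the lower side it holds, among others, for Mgl2, Stat4, Tnip1, Axl and Cish. At 2-fold, 12 genes were higher and 54 lower, so the lower side also held the larger ratios. The median log2 ratio over all 4434 genes was 0.08, and with that median set to 0 the split became 76 higher and 210 lower.

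The genes of lowest ratio at 50 CPM or more were led by Ccl22, the neighbour of Ccl17. It ran from 0 to 31 UMIs per Ccl17-low cell with a median of 1, and from 0 to 158 per other kept cell with a median of 4. The groups overlapped, since 31 UMIs lay above the upper quartile of the other kept cells, at 19 UMIs. No Ccl17-low cell reached their 90th percentile, at 41.3 UMIs. Summed, Ccl22 stood at 146 CPM in Ccl17-low cells and 1037 CPM in other kept cells (7.12-fold lower, 6.63 to 7.65). It was at 1146 CPM in Ccl17-high cells, 1948 CPM in Il12b-positive cells and 820 CPM in Plet1-positive cells. A Ccl22 UMI was present in 54.2% of Ccl17-low cells and 78.6% of other kept cells, and in 46.7% of the 15 lymphocyte barcodes at their lower depth, so a single Ccl22 UMI is not read as expression.

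Tnip3, Ccnd2, Spred1 and Lrp1 were among the 15 lowest too. Tnip3, an inhibitor of NF-kB signalling, ran from 0 to 17 UMIs per Ccl17-low cell with a median of 0 and from 0 to 29 per other kept cell with a median of 2. It stood at 102 CPM in Ccl17-low cells and 321 CPM in other kept cells (3.15-fold lower, 2.89 to 3.45). Ccnd2, the cell cycle entry protein cyclin D2, was at 72.5 CPM in Ccl17-low cells and 292 CPM in other kept cells (4.04-fold lower, 3.64 to 4.49). Spred1, a brake on the Ras and MAP kinase pathway, was at 31.2 and 82.3 CPM (2.64-fold lower, 2.25 to 3.12). Lrp1, a large endocytic receptor, was at 21.4 CPM in Ccl17-low cells and 57.1 CPM in other kept cells (2.67-fold lower, 2.20 to 3.27).

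Cd207, Mgl2, Dcstamp and Ramp3, which encode membrane proteins, were also among the 15 lowest. Cd207, the lectin langerin, ran from 0 to 38 UMIs per Ccl17-low cell with a median of 1 and from 0 to 127 per other kept cell with a median of 2. Its sums were 221 CPM in Ccl17-low cells and 612 CPM in other kept cells (2.76-fold lower, 2.60 to 2.94). Mgl2, a galactose lectin that also marks cDC2, was at 8.85 CPM in Ccl17-low cells and 58.4 CPM in other kept cells (6.59-fold lower, 4.93 to 9.01). Dcstamp, a membrane protein of cell fusion, was at 35.2 CPM in Ccl17-low cells and 91.9 CPM in other kept cells (2.61-fold lower, 2.24 to 3.05). Ramp3, a partner of peptide hormone receptors, was at 31.9 and 90.9 CPM (2.85-fold lower, 2.43 to 3.36). The other genes among the 15 lowest were AA467197, Dst, Zmynd15, Arl5c, Sdcbp2 and Slc15a3, the last a lysosomal transporter, between 2.54-fold and 4.95-fold lower. Arl5c was 3.14-fold lower overall and 1.78-fold lower among cells with 0 heat shock UMIs. All 15 were 1.5-fold or more lower than in each of the 3 classes of other kept cells, which follows in part from their choice against the pool of these classes. Over all measured genes, 4.2% were that much lower than in Ccl17-high cells, 6.43% than in Il12b-positive cells and 3.4% than in Plet1-positive cells.

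The 15 genes of highest ratio at 50 CPM or more had smaller folds. Plac8, a gene of immature and plasmacytoid dendritic cells, stood at 70.1 CPM in Ccl17-low cells and 13.3 CPM in other kept cells (5.26-fold higher, 4.43 to 6.26). Its UMIs sat in few cells, with a range of 0 to 26 UMIs per Ccl17-low cell and of 0 to 20 per other kept cell and a median of 0 in both. Without the 1% of cells with most UMIs of it in each group, its fold was 10.8. That left out 5 Ccl17-low cells and 12 other kept cells, while only 55 and 44 cells held a Plac8 UMI. A larger part of the positive other cells was thus removed, and the rise is not read as a stronger difference. Among genes at 50 CPM or more, Tlr3 came next, followed by Rac2, a blood cell GTPase of the actin cytoskeleton, which ran from 0 to 10 UMIs per Ccl17-low cell with a median of 1 and from 0 to 7 per other kept cell with a median of 0. Rac2 stood at 98.1 CPM in Ccl17-low cells and 48.2 CPM in other kept cells (2.04-fold higher, 1.82 to 2.28).

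Ifitm3, Rnase6, Pycard, Epsti1 and Ccl4 were also among the 15 highest. Ifitm3, which blocks the entry of viruses, stood at 157 CPM in Ccl17-low cells and 82.5 CPM in other kept cells (1.91-fold higher, 1.75 to 2.08). Without the cells that had a Plac8 UMI its fold was 1.49. Rnase6, a secreted ribonuclease, was at 115 CPM in Ccl17-low cells and 60.6 CPM in other kept cells (1.89-fold higher, 1.71 to 2.09). Pycard, the inflammasome adaptor ASC, was at 65.8 and 35.3 CPM (1.86-fold higher, 1.63 to 2.13). Epsti1, which interferon induces, was at 77.1 CPM in Ccl17-low cells and 43.3 CPM in other kept cells (1.78-fold higher, 1.57 to 2.02). The chemokine gene Ccl4 was at 83.5 and 49.1 CPM (1.70-fold higher, 1.51 to 1.91), and 5 Ccl17-low cells held 42.8% of its UMIs in that group.

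Zfp36l2, which promotes the decay of mRNA, was the most abundant of the 15. It ran from 0 to 34 UMIs per Ccl17-low cell with a median of 6 and from 0 to 38 per other kept cell with a median of 3. Its sums were 562 CPM in Ccl17-low cells and 335 CPM in other kept cells (1.68-fold higher, 1.60 to 1.75). The immediate early genes Nr4a2, at 341 and 209 CPM, and Egr1, at 93.3 and 55.8 CPM, were 1.63-fold (1.54 to 1.73) and 1.67-fold (1.5 to 1.87) higher in Ccl17-low cells. Among cells with 0 heat shock UMIs the fold of Egr1 was 1.35. Pid1, Rtl8b, Parp8 and Timm10b, a part of the mitochondrial import machinery, completed the 15, between 1.66-fold and 1.82-fold higher. All 15 were 1.5-fold or more higher than in Plet1-positive cells, 12 than in Ccl17-high cells and 10 than in Il12b-positive cells. Over all measured genes these shares were 4.03%, 3.26% and 6.58% in the same order, and here too the genes had been chosen against the pool of the classes.

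**Figure D3:**
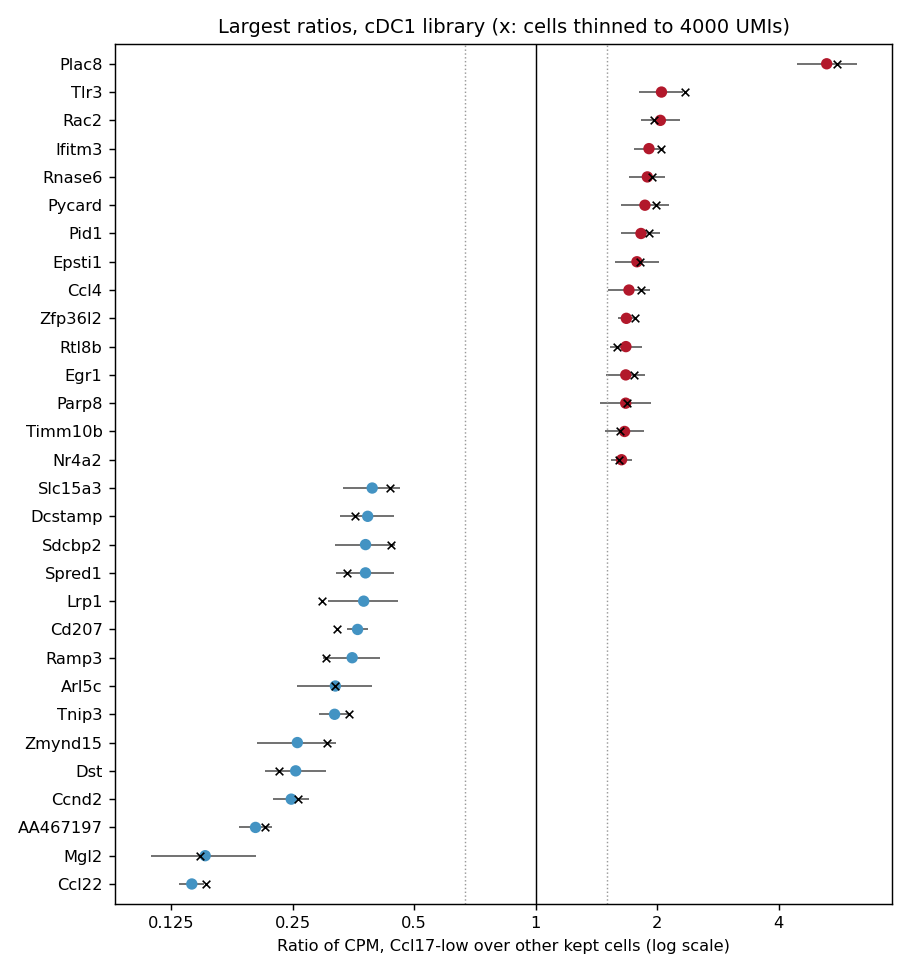
Ratio of CPM, Ccl17-low over other kept cells, on a log axis, for the 15 genes of highest and the 15 of lowest ratio under the naming rule. Circles are the ratio with its 95% counting interval, crosses the ratio after every cell was thinned to 4000 UMIs, and dotted lines mark 1.5-fold either way; the higher genes span 1.63 to 5.26 and Ccl22 is lowest at 0.140.

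Promoters are shown for the gene that chose the cells and for named genes of either direction that have a motif match. Each sequence is the 250 bases before the RefSeq gene start on GRCm38.p6, read 5′ to 3′ on the strand of the gene, and capitals mark a match to a searched motif on either strand. Ccl17 is on chromosome 8 (chr8:94810203-94810452, plus strand) and Ccl22 lies on the same strand at chr8:94745434-94745683. Tlr3 is on the minus strand at chr8:45410381-45410630, Tnip3 on the plus strand at chr6:65590148-65590397 and Cd207 on the minus strand at chr6:83677858-83678107.
Ccl17: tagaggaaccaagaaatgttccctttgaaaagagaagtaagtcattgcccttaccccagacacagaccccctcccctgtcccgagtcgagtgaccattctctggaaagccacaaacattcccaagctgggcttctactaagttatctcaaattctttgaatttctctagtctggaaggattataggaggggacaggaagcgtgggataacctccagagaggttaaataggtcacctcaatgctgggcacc
Ccl22: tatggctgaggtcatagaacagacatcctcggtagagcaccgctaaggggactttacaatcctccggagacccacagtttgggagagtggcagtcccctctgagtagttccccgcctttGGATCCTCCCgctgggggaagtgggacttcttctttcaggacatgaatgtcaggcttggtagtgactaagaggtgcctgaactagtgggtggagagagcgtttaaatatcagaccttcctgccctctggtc
Tlr3: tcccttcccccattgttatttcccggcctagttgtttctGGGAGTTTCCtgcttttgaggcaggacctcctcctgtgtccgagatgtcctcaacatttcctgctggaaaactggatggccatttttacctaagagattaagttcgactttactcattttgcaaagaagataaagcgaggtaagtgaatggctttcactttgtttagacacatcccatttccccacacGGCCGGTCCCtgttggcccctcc
Tnip3: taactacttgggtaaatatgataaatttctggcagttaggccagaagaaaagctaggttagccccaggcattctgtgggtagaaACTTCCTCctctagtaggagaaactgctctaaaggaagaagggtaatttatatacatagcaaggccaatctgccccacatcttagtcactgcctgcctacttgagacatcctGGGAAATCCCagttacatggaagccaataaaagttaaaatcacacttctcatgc
Cd207: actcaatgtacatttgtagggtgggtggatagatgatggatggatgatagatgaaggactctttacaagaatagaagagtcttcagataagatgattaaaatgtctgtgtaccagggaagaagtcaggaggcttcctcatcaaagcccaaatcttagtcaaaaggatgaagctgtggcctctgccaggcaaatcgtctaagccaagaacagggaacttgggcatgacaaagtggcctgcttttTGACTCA

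The NF-kB motif searched, GGGA and CC with any 4 bases between, matched Tlr3 in 2 places and Ccl22 and Tnip3 in 1 place each, so it was found in genes of both directions. It was present in 17.3% of 27025 promoters of the table. The motif TGANTCA for AP-1 matched Cd207 and was present in 6.87% of promoters, and GAGGAAGT for PU.1 matched Tnip3 and was present in 2.44%. The motif of interferon response elements, GAAA and GAAA with any 2 bases between, matched none of these 5 and was present in 3.04%. The table held a promoter for 11 of the 15 highest and 10 of the 15 lowest genes, and the NF-kB motif was in 3 of each. A match is a description of the letters, and no match says only that these letters are not in the window.

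Genes of NF-kB signalling lay on the lower side throughout. All 13 measured subunits and inhibitors had a ratio below 1, with a median log2 ratio of -0.70 beside 0.08 over all genes. Of the 13, 7 were 1.5-fold or more lower, beside 3.79% of all genes. The subunit gene Nfkb1 ran from 0 to 17 UMIs per Ccl17-low cell with a median of 2 and from 0 to 30 per other kept cell with a median of 4. It stood at 210 CPM in Ccl17-low cells and 429 CPM in other kept cells (2.05-fold lower, 1.92 to 2.18). The subunit gene Rel was at 279 and 454 CPM (1.62-fold lower, 1.53 to 1.72), and Relb and Nfkb2 of the non-canonical arm were within 1.5-fold, at 28.9 and 34.3 CPM in Ccl17-low cells and 39.8 and 47.3 CPM in other kept cells.

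The inhibitors of the pathway were lower along with its subunits. Nfkbia, which holds NF-kB in the cytoplasm, was at 604 CPM in Ccl17-low cells and 1015 CPM in other kept cells (1.68-fold lower, 1.62 to 1.75). Tnfaip3, the deubiquitinase A20, was at 100 and 164 CPM (1.63-fold lower, 1.49 to 1.79), and Tnip1, which binds it, at 9.22 and 31.5 CPM (3.42-fold lower, 2.55 to 4.67). Nfkbib was 1.63-fold lower (1.46 to 1.82). Among cells with 0 heat shock UMIs, Nfkbia was 1.40-fold lower and Rel 1.42-fold lower, both inside 1.5-fold.

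The maturation genes and part of the cytokines were lower. Of 13 measured maturation genes, 5 were lower, beside 3.79% of all genes, none was higher and all 13 ratios were below 1, with a median log2 ratio of -0.54. Cd80, a ligand that co-stimulates T cells, was at 34.3 CPM in Ccl17-low cells and 82.3 CPM in other kept cells (2.40-fold lower, 2.06 to 2.81), while its partner Cd86, at 310 and 453 CPM, stayed within 1.5-fold. Traf1, a signal adaptor of TNF receptors, was at 141 and 280 CPM (1.98-fold lower, 1.84 to 2.14), and Stat4, a signal transducer downstream of interleukin 12, at 5.53 and 26.9 CPM (4.86-fold lower, 3.35 to 7.30). Of 6 measured cytokine genes, 3 were lower, none was higher and 1 ratio was above 1. Il1b ran from 0 to 80 UMIs per Ccl17-low cell with a median of 1 and from 0 to 111 per other kept cell with a median of 10, and stood at 541 CPM in Ccl17-low cells and 1343 CPM in other kept cells (2.48-fold lower, 2.39 to 2.58). Il1a and Tnf were 2.22-fold (1.77 to 2.82) and 1.94-fold (1.5 to 2.53) lower. Without the heat shock limit on cells, Tnf was 1.16-fold lower.

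Receptors for growth factors and adhesion molecules were also lower in part. Of 14 measured cytokine receptor and SOCS genes, 5 were lower, beside 3.79% of all genes, and none was higher. They included Csf2rb, the shared beta chain of the GM-CSF receptor, at 431 CPM in Ccl17-low cells and 668 CPM in other kept cells (1.55-fold lower, 1.48 to 1.62), its paralog Csf2rb2 at 33.001 and 65.5 CPM, between which reads may be split, and Cish, a feedback inhibitor of cytokine signalling, at 18.3 and 42.0 CPM. The alpha chain gene Csf2ra was within 1.5-fold at 226 CPM in Ccl17-low cells and 255 CPM in other kept cells. Of 12 mucosal adhesion genes, 5 were lower, namely Cd207, Cldn7, Icam1, Epcam and Cldn1. Epcam, an adhesion molecule of epithelium and Langerhans cells, was at 101 CPM in Ccl17-low cells and 164 CPM in other kept cells (1.63-fold lower, 1.49 to 1.80). The claudin gene Cldn1 was at 224 and 361 CPM (1.61-fold lower, 1.51 to 1.71), and Icam1, an integrin ligand, at 107 and 176 CPM (1.65-fold lower, 1.5 to 1.80). Icam1 was 1.37-fold lower among cells with 0 heat shock UMIs.

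Receptors that take up dead cells divided. Of 9 measured genes, Axl, Lrp1 and Timd4 were lower, where 3.79% of all genes were lower and 2.64% higher. Timd4, which binds phosphatidylserine, stood at 192 CPM in Ccl17-low cells and 386 CPM in other kept cells (2.01-fold lower, 1.88 to 2.15), and Axl, a receptor kinase that binds it through a bridging protein, at 11.2 and 34.5 CPM (3.06-fold lower, 2.35 to 4.06). The other 6 lay within 1.5-fold. Of 4 measured Toll-like receptor genes and partners, Tlr3 was higher, Cd14, the co-receptor for lipopolysaccharide, was lower at 220 and 345 CPM (1.57-fold lower, 1.47 to 1.67; ratio 1.01 where cells were chosen on Ccl17 alone), and Unc93b1, which carries endosomal receptors to their compartment, was within 1.5-fold at 280 and 226 CPM.

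Chemokine genes other than Ccl22 included members higher in Ccl17-low cells. Of 6 measured, Cxcl9, Ccl2 and Ccl4 were higher and Ccl22 and Cxcl16 lower, beside 2.64% higher and 3.79% lower of all genes. The fold of Ccl4 ranged between 1.29 and 2.83 over the alternatives, and a Ccl4 UMI was in 13.0% of Ccl17-low cells and 14.8% of other kept cells. Ccl2 was 2.16-fold higher (1.68 to 2.76) overall and 1.27-fold higher between the quartiles of depth, and 5 Ccl17-low cells held 37.6% of its UMIs. Cxcl9, an interferon-gamma-induced ligand of Cxcr3, was at 41.1 CPM in Ccl17-low cells and 8.92 CPM in other kept cells (4.61-fold higher, 3.71 to 5.74), but 5 Ccl17-low cells held 81.6% of its UMIs there and 1 held 89 UMIs. Without the 1% of cells with most of its UMIs the fold was 2.28. Its receptor gene Cxcr3 was at 24.3 CPM in Ccl17-low cells and 10.6 CPM in other kept cells (2.30-fold higher, 1.82 to 2.91). Cxcl9 and Cxcr3 passed the level limit of 20 CPM only in Ccl17-low cells.

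Transcription factors gave 5 higher and 1 lower of 23 measured, beside 2.64% higher and 3.79% lower of all genes. Mycl, Bcl11a and Id3 reached 20 CPM only in Ccl17-low cells, so their call was in part set by the level limit. Mycl, which supports cDC1 function, was at 28.2 CPM in Ccl17-low cells and 14.1 CPM in other kept cells (1.99-fold higher, 1.61 to 2.46). Bcl11a, a factor of early lymphoid and dendritic cells, was at 25.1 and 14.5 CPM (1.73-fold higher, 1.39 to 2.14), Cebpa, a myeloid factor, at 51.4 and 31.7 CPM (1.62-fold higher, 1.40 to 1.88), and Irf2 at 64.5 and 43.0 CPM (1.5-fold higher, 1.32 to 1.71). Id3 was 4.76-fold higher (3.53 to 6.45) at 22.1 CPM in Ccl17-low cells and 4.65 CPM in other kept cells, but 5 Ccl17-low cells held 65.0% of its UMIs, and its fold was 1.38 without the cells that had a Plac8 UMI. The orphan receptor gene Nr4a3 was lower, at 225 and 407 CPM (1.81-fold lower, 1.70 to 1.92), unlike its relative Nr4a2.

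A few genes of antigen presentation and the lysosome were higher by themselves, where 2.64% of all genes were higher. Of 13 MHC class II pathway genes only March1, a ubiquitin ligase that removes MHC class II and Cd86 from the surface, passed 1.5-fold, at 41.9 CPM in Ccl17-low cells and 18.5 CPM in other kept cells (2.27-fold higher, 1.90 to 2.70). Cd74, the invariant chain, stood at 23558 CPM in Ccl17-low cells and 25413 CPM in other kept cells. Of 12 lysosomal genes only Lamp1 passed, at 27.1 and 12.6 CPM (2.15-fold higher, 1.72 to 2.67). March1 and Lamp1 reached the level limit of 20 CPM only in Ccl17-low cells. The interferon regulator gene Irf7 lay below the level limit with 17.1 CPM in Ccl17-low cells and 5.10 CPM in other kept cells (3.36-fold higher, 2.47 to 4.59).

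No gene passed 1.5-fold among 19 Rab GTPases, 18 genes of MHC class I and cross-presentation, 14 of glycolysis, 6 of lipid metabolism, 5 of contact sites and 3 of DNA replication. Over all measured genes, 2.64% were higher and 3.79% lower. Lists this short with few or no genes past 1.5-fold are near that share and say little about their families. Of 18 immediate early genes, Egr1 and Nr4a2 were higher and none was lower. Of 6 early dendritic cell genes, Plac8 and Ifitm3 were higher, and of 19 actin and migration genes only Rac2 was. The co-signalling list gave Cd80 and Tnfsf9 lower among 10, the retinoic acid and TGF-beta list gave Tgfbr1 lower among 7, and the clock list gave Bhlhe40 lower among 4, at 330 and 566 CPM (1.71-fold lower, 1.63 to 1.81). The cDC2 identity list gave Mgl2 and Cd209a lower among 4, but between the quartiles of depth Cd209a had a ratio of 1.16, and 5 Ccl17-low cells held 53.01% of its UMIs. Serpinb8 had no company among its 2 measured relatives, since Serpinb9 and Serpinb6b were 1.91-fold (1.52 to 2.42) and 1.69-fold (1.39 to 2.07) lower.

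**Figure D4:**
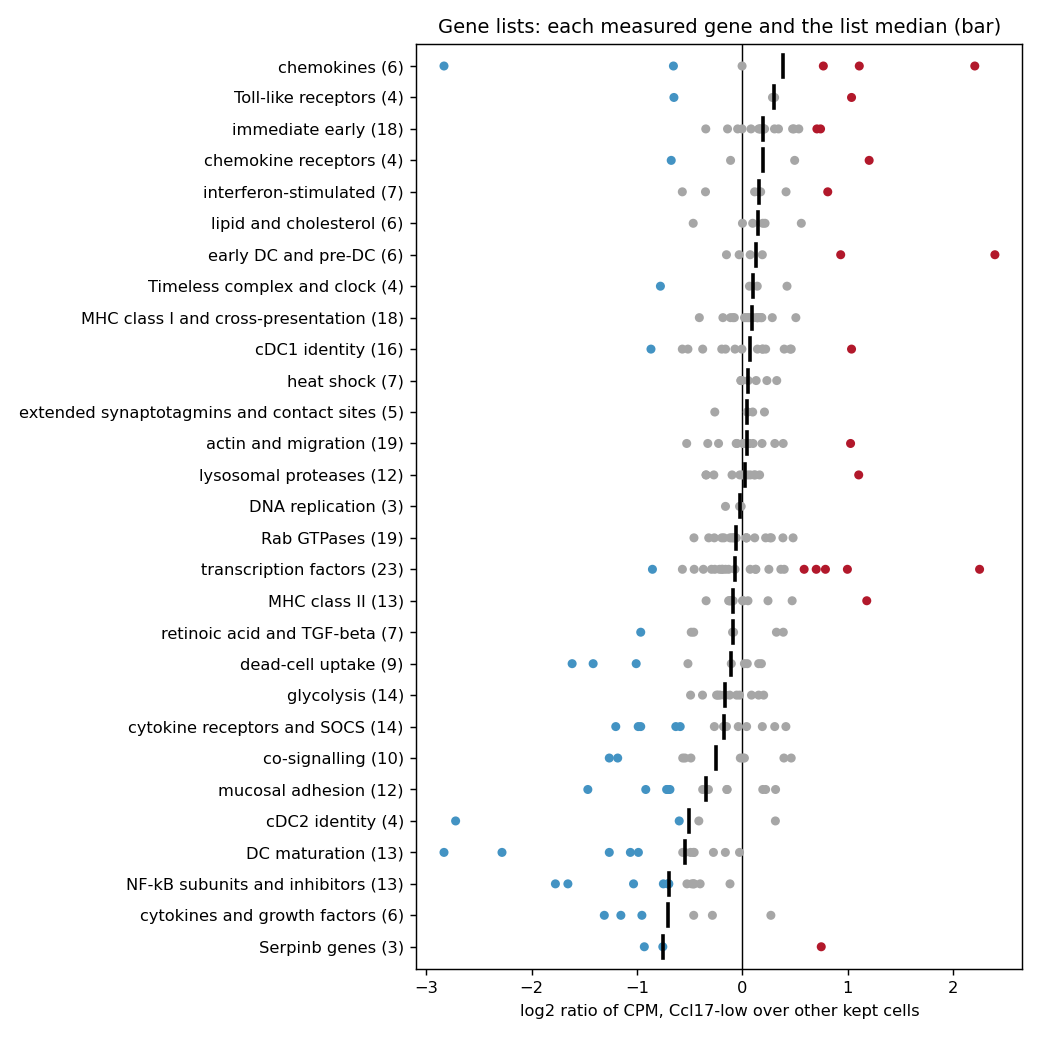
Log2 ratio of CPM, Ccl17-low over other kept cells, for each measured gene of the 29 gene lists, with the number measured in parentheses and the list's median as a black bar. Points past 1.5-fold are red (higher) or blue (lower); NF-kB genes have a median of -0.70 and maturation genes of -0.54, beside 0.08 over all genes.

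Levels of some of the named genes went on changing among the cells above the cut on Ccl17. They were followed in the cells with Il12b and Plet1 at 0, in bins of 0, 1 to 2, 3 to 9, 10 to 29, 30 to 99 and 100 or more UMIs of Ccl17. Median depth in the bins lay between 11606 and 12271 UMIs, except 14271.5 UMIs in the last bin, which held 14 cells. Ccl22 stood at 127, 165, 424, 1173, 1722 and 3092 CPM in these bins in turn. Tnip3 stood at 89.3, 115, 242, 363, 503 and 625 CPM and Nfkb1 at 193, 227, 338, 480, 596 and 827 CPM. Ccnd2 followed the same order, with 60.9 CPM in the bin of 0 and 416 CPM in that of 30 to 99. Other named genes were alike in the bins of 0 and of 1 to 2, such as Cd207, at 225 and 218 CPM, and Dcstamp, at 35.5 and 34.9 CPM. Because 1 or 2 UMIs of Ccl17 are not read as expression, a step between these bins is not read as following Ccl17.

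Of the 15 highest genes, some ran the other way, among them Tlr3, Zfp36l2 and Rac2. Tlr3 stood at 88.2, 70.6, 62.3, 45.4 and 33.1 CPM in the first 5 bins, and at 9.85 CPM on 2 UMIs in the last. Zfp36l2 stood at 617, 505, 419, 306 and 277 CPM in the first 5 bins, and Rac2 at 98.2, 97.9, 58.1, 58.0 and 37.8 CPM. Others of the 15 did not fall steadily. Ccl4 stood at 60.9, 107, 28.001, 25.1 and 44.5 CPM in the first 5 bins and 133 CPM in the last, and Pycard at 55.6, 76.7, 53.9, 30.9 and 50.1 CPM in the first 5. Timeless kept to between 77.3 and 88.9 CPM in all bins. On either side of the cut, the 65 cells with 2 UMIs of Ccl17 had 56.0 CPM of Tlr3 and the 42 cells with 3 UMIs had 54.9 CPM, while Ccl22 stood at 213 and 437 CPM and Tnip3 at 144 and 249 CPM.

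**Figure D5:**
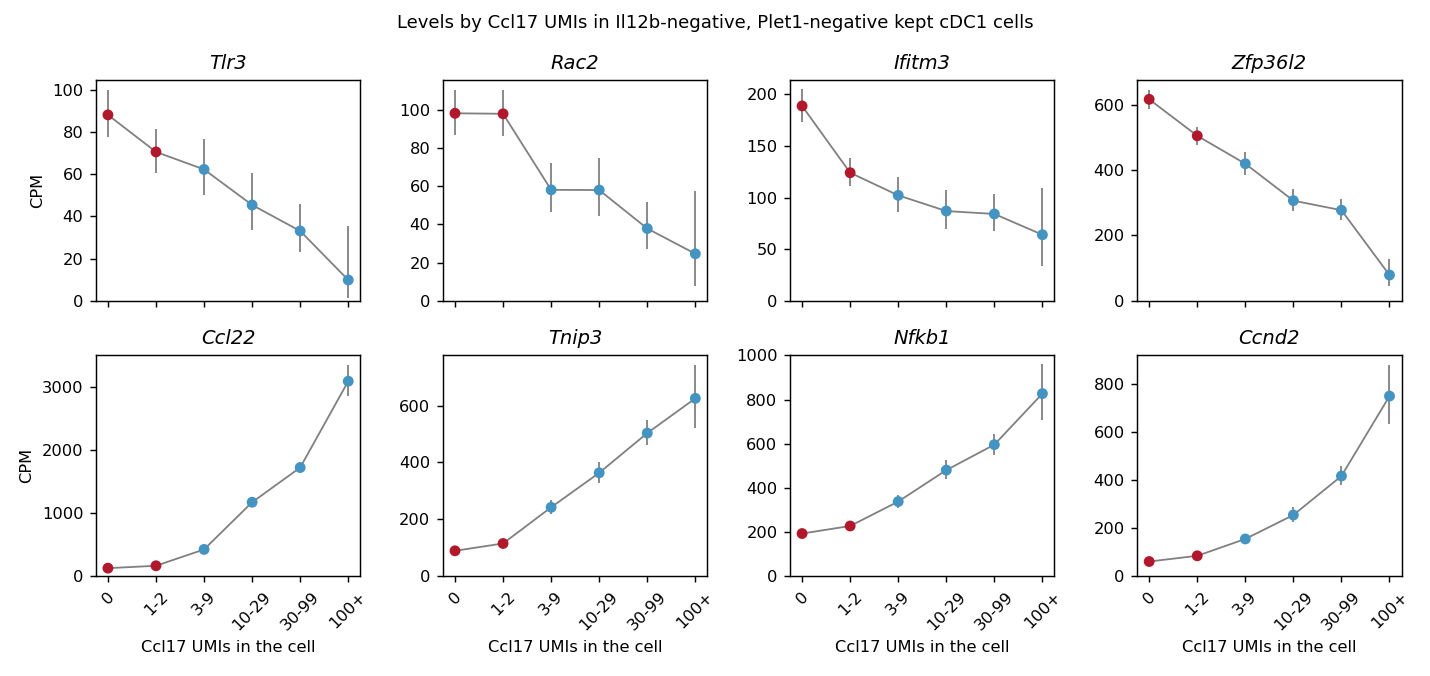
Level in CPM of 8 genes (linear axes from 0) by the Ccl17 UMIs of the cell, in kept cells with Il12b and Plet1 at 0. Red points are the 232 and 213 Ccl17-low cells, blue points the Ccl17-high cells, and lines the 95% counting interval; Tlr3, Rac2, Ifitm3 and Zfp36l2 were higher in the bin of 0 than in that of 30 to 99, and Ccl22, Tnip3, Nfkb1 and Ccnd2 lower.

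Because the rule used Plet1 as well as Ccl17, the Ccl17-low cells were set beside cells that differ from them in either gene alone. Among cells with Il12b at 0, 308 had Ccl17 of 3 or more without Plet1, and 256 had Plet1 with Ccl17 of 2 or fewer. Their median depths were 11939 and 13089.5 UMIs. Against the 308 Ccl17-high cells, 145 of 4453 genes (3.26%) were higher in Ccl17-low cells and 187 (4.2%) lower. Against the 256 Plet1-positive cells low in Ccl17, 219 of 4417 genes (4.96%) were higher in Ccl17-low cells and 86 (1.95%) lower.

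Ccl22 and the NF-kB genes Nfkb1, Tnip3 and Nfkbia were lower beside the Ccl17-high cells and not beside the Plet1-positive cells low in Ccl17. Nfkb1 was at 210 CPM in Ccl17-low cells, 210 CPM in Plet1-positive cells low in Ccl17 and 478 CPM in Ccl17-high cells. Tnip3 was at 102, 98.5 and 371 CPM in the same order and Ccnd2 at 72.5, 76.8 and 289 CPM. Ccl22 was at 146 CPM in Ccl17-low cells and 88.1 CPM in Plet1-positive cells low in Ccl17 (1.65-fold higher, 1.45 to 1.89), but 7.87-fold lower (7.29 to 8.50) than in Ccl17-high cells. Nfkbia, at 604 CPM in Ccl17-low cells and 363 CPM in Plet1-positive cells low in Ccl17, and Icam1 were likewise higher in Ccl17-low cells in the comparison by Plet1, by 1.66-fold (1.56 to 1.78) and 1.64-fold (1.41 to 1.92). The same genes were 2.28-fold (2.18 to 2.38) and 2.24-fold (2.02 to 2.49) lower in the comparison by Ccl17.

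Other genes had the larger fold in the comparison by Plet1. Cd207 was at 221 CPM in Ccl17-low cells, 648 CPM in Plet1-positive cells low in Ccl17 and 432 CPM in Ccl17-high cells. Csf2rb was at 431, 752 and 484 CPM in the same order, so it passed 1.5-fold only in the comparison by Plet1 (1.75-fold lower, 1.65 to 1.85). Cd14 was 2.15-fold lower (1.99 to 2.32) in the comparison by Plet1 and had a ratio of 0.979 (0.895 to 1.07) in that by Ccl17. Dcstamp was at 35.2, 92.4 and 62.6 CPM and Ramp3 at 31.9, 80.6 and 48.6 CPM. Not all surface genes had this order: Mgl2 was 6.25-fold lower by Ccl17 and 3.14-fold lower by Plet1, and Lrp1 was 2.67-fold and 1.53-fold lower.

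Tlr3 was higher in Ccl17-low cells in both comparisons, with 79.6 CPM in Ccl17-low cells, 41.7 CPM in Plet1-positive cells low in Ccl17 and 46.5 CPM in Ccl17-high cells. Cells that had both Plet1 and Ccl17 of 3 or more stood at 29.2 CPM. Zfp36l2 passed 1.5-fold only in the comparison by Ccl17, at 562 CPM in Ccl17-low cells and 329 CPM in Ccl17-high cells. Of the 15 highest genes, 10 passed 1.5-fold in both comparisons, 2 by Ccl17 only, 2 by Plet1 only and Parp8 in neither. Of the 15 lowest genes, 10 passed in both and Ccl22, Ccnd2, Tnip3, Arl5c and Spred1 by Ccl17 only.

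The Ccl17-low cells were not uniform. A Plac8 UMI was present in 55 of the 445 (12.4%) and in 44 of the 1198 other kept cells (3.67%), beside 6.67% of the 15 lymphocyte barcodes. In 37 Ccl17-low cells with at least 3 UMIs lay 93.2% of the Plac8 UMIs of the group. The 55 cells, of median depth 13689 UMIs, had 403 CPM of Ifitm3 against 117 CPM in the 390 Ccl17-low cells with Plac8 at 0, 35.01 against 14.2 CPM of Irf7 and 172 against 85.8 CPM of Rac2. They had 64.8 against 247 CPM of Cd207 and 24.6 against 115 CPM of Tnip3. Of the genes given as markers, Tlr3 was at 51.9 CPM in the 55 cells and 84.2 CPM in the 390, Timeless at 48.0 and 92.8 CPM, Esyt3 at 7.78 and 33.3 CPM and Rab7b at 372 and 443 CPM, while Serpinb8 went the other way at 38.9 and 27.7 CPM. Xcr1 stood at 301 CPM in the 55 cells and 260 CPM in the 390. The split by Plac8 was not particular to Ccl17-low cells. Among other kept cells, the 44 with Plac8 had 169 CPM of Ifitm3 against 78.2 CPM in the 1154 with Plac8 at 0. Irf7 was at 12.1 against 4.75 CPM and Rac2 at 92.8 against 45.9 CPM. Cd207 was at 330 against 626 CPM and Tnip3 at 110 against 331 CPM. Rab7b, at 403 against 355 CPM, differed in direction from the split of the Ccl17-low cells.

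The same rule in the cDC2 library kept 82 cells, 47 of them Ccl17-low and 35 not. Those cells were not clean cDC1, since the cDC2 genes Mgl2 and Cd209a stood at 534 and 543 CPM in the 47 cells and 1755 and 960 CPM in the 35 other kept cells. Ccl22 was at 109 CPM in the 47 Ccl17-low cells and 1050 CPM in the 35 others, Tnip3 at 476 and 996 CPM, and Plac8 at 791 and 153 CPM. Of the 15 highest genes, Epsti1 and Zfp36l2 were higher there too, with ratios of 3.23 (1.78 to 6.22) and 2.72 (2.20 to 3.37). So were Ifitm3, at 2.12 (1.86 to 2.41), and Timm10b, at 1.73 (1.12 to 2.71). Apart from these and Plac8, the 15 did not repeat beyond counting error. Rac2 had a ratio of 0.982 (0.772 to 1.25), and Ccl4 and Egr1 reversed, at 0.646 (0.498 to 0.834) and 0.337 (0.170 to 0.629). The groups also differed in Irf8, at 722 and 279 CPM. Tlr3 rested on 11 UMIs in the 47 Ccl17-low cells and 6 in the 35 others, with a ratio of 1.85 (0.628 to 6.10), so no difference was detectable at this depth. With at least 3 UMIs of Xcr1 and Clec9a only 10 and 5 cells remained there. Zfp36l2 then had a ratio of 1.84 (1.17 to 2.97), while Ifitm3 reversed to 0.630 (0.432 to 0.917).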

How the data were processed

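The authors deposited raw counts of UMIs per gene and barcode for 2 libraries, prepared on the 10x Chromium platform (v3.1) per the labels' protocols. The counts come from Cell Ranger 3.2 on mm10 per the submitters' processing notes, while per the file headers the software version is 3.0.2. Seurat is named in those notes without a role. The sources used here do not state how barcodes were chosen before deposit. The cDC1 library held 2939 barcodes and 36021556 UMIs, the cDC2 library 3045 and 39188956. Quality limits removed 365 barcodes of the cDC1 library, the need for Xcr1 or Clec9a 202, the mature cell limits 217, the cycling limit 329 and the heat shock limit 183. Doublets were not called.

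UMIs were summed per group with numpy 2.4.6 and scaled to CPM. Ratios have exact conditional binomial intervals and levels exact Poisson intervals, with scipy 1.17.1, at a 95% level. With 1 library there is no p-value. The code was checked on simulated counts with known folds. Genes named are the 15 of highest and the 15 of lowest ratio at 50 CPM or more in a group and 1.5-fold or more, on the same side of 1 when thinned to 4000 UMIs. The genes of the rule were left out, as were antigen receptor segments and genes that are predicted only, histone, ribosomal or mitochondrial. The 5 given markers, and per list up to 4 genes of largest ratio and 2 of highest level, were also named. Traf1, Nfkbib, Tnfaip3, Relb, Nfkb2, Csf2ra, Cldn1, Irf7, Irf2, Cebpa, Nr4a1 and cDC1 markers are list members outside this rule, named after their values were seen. The members and the 29 lists were chosen with earlier results of these data known, so no count over them is independent support. Promoter sequences are from RefSeq on GRCm38.p6, the assembly of mm10. Some named genes are not reported here. Alternatives covered scaling, thinning, depth, level, fold and cell limits.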

Additional observations from a re-analysis of the deposited data

How the results depend on the processing

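No paired analysis was possible because each sort is 1 library and the labels give no replicate numbers. Of 69 named genes past 1.5-fold, 18 alternatives gave 1241 values, of which 1239 kept their direction and 1189 also stayed at 1.5-fold or more. The 2 reversals were Cd209a between the quartiles of depth (log2 ratio 0.21) and Cd14 with the cells chosen on Ccl17 alone (log2 ratio 0.013), and the cause was not tested. The count of higher genes, 117, moved to 267 with cells thinned to 4000 UMIs, 453 at 2000 UMIs, 207 between the quartiles of depth, 76 with the median ratio set to 1, 298 at 10 CPM, 32 at 50 CPM, 12 at 2-fold, 195 with Ccl17 at 0 and 57 on Ccl17 alone. It moved to 245 among cells with 0 heat shock UMIs, an alternative added after the data were seen. The count of lower genes, 168, moved to 263 at 2000 UMIs, 98 at 50 CPM and 54 at 2-fold. Thinned and smaller sets rest on fewer UMIs. The share of 27.1% became 18.5% with Ccl17 at 0, 32.2% at 5 or fewer, 45.7% on Ccl17 alone, 30.01% without the heat shock limit and 31.1% with 0 cycling UMIs. A cut on Ccl17 relative to the depth of the cell shared 432 of 445 cells. On Ccl17 alone 13 named genes fell inside 1.5-fold, among them Pycard (1.44), Egr1 (1.28) and Csf2rb (1.16-fold lower), and Cd207 was 1.51-fold lower. Without cells with Plac8, also added later, 5 did.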
